A study of Canis lupus familiaris with 15 samples.

Results

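Skin expression of IL4, IL13, CCL17, CCL24 and CCL26, a pair of type 2 cytokines and 3 chemokines of the same pathway, was followed across 15 dogs. The 5 probes were chosen by gene, as the rows whose RefSeq accession belongs to one of these dog genes, out of 160 probes of a custom NanoString panel. In this assay each RNA molecule is tagged by a coloured barcode and counted, without amplification. All samples were archival, paraffin-embedded skin biopsies. The lesions came from 7 dogs with discoid lupus erythematosus (DLE) aged 1 to 13 years, 1 dog aged 7 years with chronic cutaneous lupus (CCLE) in which systemic lupus was suspected, 1 dog aged 6 years with mucocutaneous lupus (MLE) and 1 dog aged 9 years with pyoderma, a bacterial skin infection. The pyoderma dog is a disease control whose label once named another form of lupus. Healthy skin came from 5 leg margin excisions re-used from an earlier series. The diseased dogs were of different breeds and of both sexes, no treatment is recorded, and neither the body site of the lesions nor the age of the healthy dogs is given in the labels used here.

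IL4 and IL13 are made mainly by type 2 helper T cells, innate lymphoid cells, mast cells and basophils, and share a receptor chain that signals through STAT6. In human and mouse skin this signal makes keratinocytes, fibroblasts, endothelium and macrophages release chemokines. CCL17 binds CCR4 on skin-homing and type 2 T cells, and CCL24 and CCL26 are eotaxins that bind CCR3 on eosinophils. In dogs, as in people, CCL17 is best known from atopic dermatitis. IL4 and IL13 lie next to each other in the dog gene table, and so do CCL24 and CCL26, with 0 listed genes between the members of either pair.

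Counts summed over the panel were between 495839 and 587169 in DLE dogs, 501396 in the CCLE, 654993 in the MLE and 430515 in the pyoderma dog, and between 209889 and 675018 in healthy dogs. A dog's background limit, the mean plus 2 SD of its 8 lowest spike-in control rows, was between 13.6 and 30.0 counts. The control rows that read high were not the same in all dogs. One group of rows was high in 9 dogs (set A: DLE, MLE, pyoderma) and another in 6 (set B: CCLE, healthy), so that DLE and healthy dogs cannot be told apart from their sets. Whether the sets mark separate runs, or control rows listed in another order, was not tested. Across the panel, the CCLE dog of set B had Spearman correlations of 0.813 to 0.941 with the DLE dogs and of 0.641 to 0.727 with the healthy dogs. Below, a count is the deposited count, and a normalised count is scaled to equal library size by TMM, a method that assumes most probes do not differ. In biopsies, fewer cells of a type and less RNA per cell cannot be told apart.

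Setting DLE beside healthy skin addresses whether the type 2 genes differ in lupus lesions. CCL24 was 7.38-fold lower in DLE skin. IL4 also passed the test on the lower side, but it was at the level of background in both groups. IL13 (log2 -0.37, 95% interval -1.15 to 0.40) and CCL26 (0.41, -0.48 to 1.30) were not called. Their intervals include 0 but also changes of more than 2-fold. CCL17 was high in 1 DLE dog. All 5 members passed the filter on low counts, and 0 were called higher, 2 lower and 3 neither, at an adjusted p under 0.05. On the whole panel 95 of 154 probes (61.7%) were called, 37 lower (24.0%) and 58 higher (37.7%), so that 2 falls among 5 members is not far from the panel's own share. The median log2 change was -0.37 for the 5 members and 0.42 for all probes tested.

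**Figure D1:**
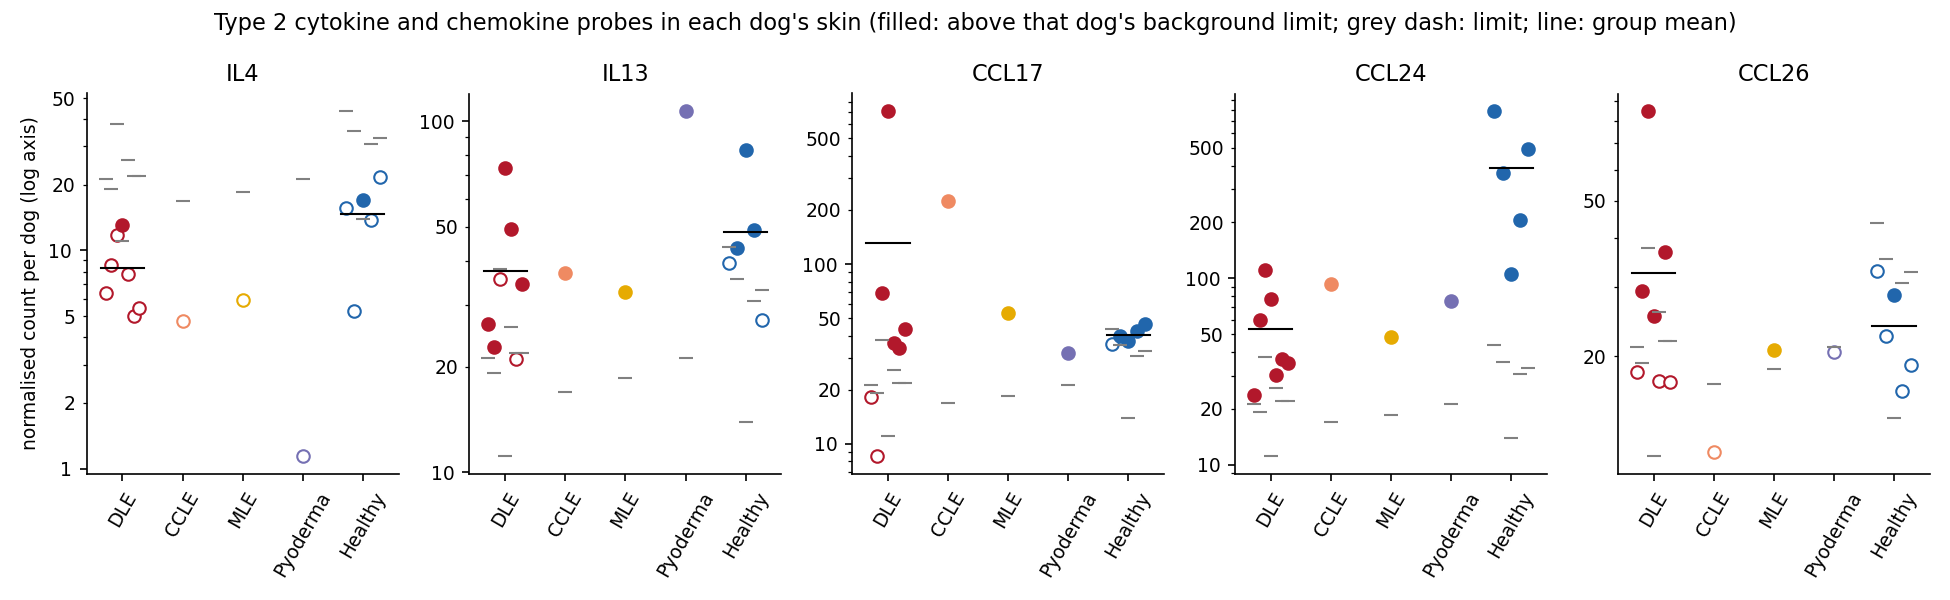
Normalised counts of the 5 members in each dog, on log axes that differ between panels, for DLE (7 dogs), CCLE, MLE and pyoderma (1 dog each) and healthy skin (5 dogs). Filled points are above that dog's background limit (grey dash), and lines are group means. CCL24 was above the limit in all 15 dogs and IL4 in 2, and DLE dog 4 stood at 711.9 for CCL17.

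IL4, the cytokine that drives type 2 helper T cells and the switch of B cells to IgE, was hardly measurable. The count in DLE dogs was 5 at the lowest, 7 at the median and 16 at the highest. In healthy dogs 1 to 5 it was 10, 4, 28, 11 and 16. Only DLE dog 4 and healthy dog 3 exceeded their background limits, and healthy dog 2 had fewer counts than every DLE dog, so the groups overlapped. Normalised counts averaged 8.28 ± 3.12 in DLE dogs (SD, n = 7) and 14.7 ± 6.04 in healthy dogs (n = 5). The log2 change was -0.84 ± 0.33 (SE, edgeR adjusted p = 0.0383). Because both groups were near background, no fold is given for IL4. The call ended in limma (-0.71), in the exact permutation test (-0.71), under reference gene (-0.08), spike-in (-0.48) and quantile scaling (-0.69), with counts raised to the limit (-0.50) or the background subtracted (-1.97), and without any 1 of 9 dogs. In all 15 dogs, with the 9 lupus dogs (DLE, CCLE, MLE) set against the 6 healthy and pyoderma dogs, IL4 was not called either (log2 -0.72, edgeR adjusted p = 0.141), and it stood at 0.06 (adjusted p = 0.961) when the set was added as a block.

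IL13, the cytokine of barrier skin that acts on keratinocytes and fibroblasts, was low but above the limit in 5 of 7 DLE and 3 of 5 healthy dogs. Its count was 18 at the lowest, 29 at the median and 90 at the highest in DLE dogs, and 25, 33, 136, 39 and 20 in healthy dogs 1 to 5. The highest values belonged to DLE dog 4 and healthy dog 3, and the groups overlapped widely. Normalised counts averaged 37.5 ± 18.5 in DLE dogs (SD, n = 7) and 48.4 ± 20.9 in healthy dogs (n = 5). The log2 change was -0.37 (95% interval -1.15 to 0.40, edgeR adjusted p = 0.372), an interval that allows a fall as well as a slight rise. IL13 was called lower under panel median (log2 -1.08) and quantile scaling (-1.04) and stood at 0.32, not called, under reference gene scaling. Between the 9 lupus and the 6 other dogs it was -0.66 without the set as a block and -1.0 with it (95% interval -1.88 to -0.11, edgeR adjusted p = 0.096), a contrast in which the pyoderma dog counts as a control.

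CCL17, the CCR4 ligand, varied more among DLE dogs than any other member. The counts in DLE dogs 1 to 7 were 20, 9, 35, 872, 42, 34 and 48, against 23, 30, 61, 34 and 34 in healthy dogs 1 to 5. DLE dog 4, aged 13 years, exceeded its background limit 64.2-fold, while the other DLE dogs were at most 1.99 times theirs. DLE dogs 1 and 2 were below the limit, and after scaling these and DLE dog 6 were below every healthy dog. Normalised counts averaged 132 ± 257 in DLE dogs (median 36.2, n = 7) and 40.4 ± 4.15 in healthy dogs (SD, median 39.7, n = 5). The log2 change of 1.71 ± 0.96 (SE, edgeR adjusted p = 0.138) rested on DLE dog 4 and was -0.23 without it. CCL17 was called under reference gene scaling (log2 2.63), and its sign turned in DESeq2 (-0.45) and under quantile scaling (-0.47). In the same dog IL17A, a cytokine of Th17 cells, stood at 97.97 normalised counts (median of DLE dogs 8.629), and CCL20, the ligand of CCR6, at 1654 (median 218.2). This was not confined to Th17 genes. DLE dog 4 was also the highest DLE dog for IFNG (228.6), TNF (291.4), IL12B (207.4) and CXCL10 (19380). Its CCL5 (3422) was at the DLE median, and its CD40LG (35.1) was below the median of 53.23.

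CCL24, the eotaxin made largely by macrophages and monocytes, was the member with the clearest difference. The counts in DLE dogs 1 to 7 were 26, 63, 56, 95, 35, 37 and 39, against 503, 277, 174, 163 and 361 in healthy dogs 1 to 5. Every DLE dog thus had fewer counts than every healthy dog before any scaling, although 4 of the healthy dogs had the smallest panel totals of the study. The raw counts of 9 of 154 probes (5.84%) were apart in this direction. In normalised counts CCL24 averaged 53.4 ± 31.3 in DLE dogs (SD, n = 7) and 392 ± 268 in healthy dogs (n = 5). Its log2 change was -2.88 with an SE of 0.51 (edgeR adjusted p = 0.000356). This was the fourth lowest change of the 154 probes. After scaling, DLE dog 3 (110.4) and healthy dog 3 (106.0) overlapped.

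CCL24 was also ranked within each dog, a measure that no scaling touches. Ranked by count among the 160 panel probes of its own dog, CCL24 stood at places 87 to 136 in DLE dogs and 32 to 81 in healthy dogs, a mean difference of 60.9 places (exact permutation p = 0.00126, two-sided, the smallest that 792 splits of the 12 dogs allow). A place also depends on the other probes, and 58 of 154 probes (37.7%) were called higher in DLE. The share of probes whose places were apart between the groups was not computed. Against the median change of all probes, CCL24 lay between -3.32 and -2.77 on the log2 scale under 6 scalings. Subtracting that median takes out most of a scaling's effect by construction, so this range does not test the dependence on scaling. The values of all DLE dogs were above the background limit, but only by 1.12 times in DLE dog 1 and 1.17 times in DLE dog 5. With the background subtracted the log2 change was -3.20. Scaling moved its size, to -2.03 by spike-in, -2.09 by reference genes and -3.56 by panel median, and CCL24 was called under each.

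The sets of control rows could be blocked only in a contrast of the 9 lupus dogs with the 6 healthy and pyoderma dogs, because DLE and healthy dogs share no set. In that contrast, without the block, CCL24 was lower by log2 -2.57 ± 0.49 (SE, edgeR adjusted p = 0.000505), and 86 of 154 probes (55.8%) were called. With the block its change was -1.28 ± 0.76 (95% interval -2.90 to 0.35, edgeR adjusted p = 0.242), and 40 probes (26.0%) were called. The blocked value rests on 1 pyoderma dog as the control of set A and on 1 CCLE dog as the lupus dog of set B. Within set B, the CCLE dog stood at 93.71 normalised counts, below all 5 healthy dogs (106.0 to 791.1). Within set A, the pyoderma dog (75.1) and the MLE dog (48.16) lay inside the DLE range (23.64 to 110.4). All 3 single lesions were below every healthy dog, but set A holds no healthy dog. Only the CCLE dog could thus be compared with healthy dogs of its own set. DLE dog 3 (110.4) was above the lowest healthy dog.

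Other genes of the skin moved with CCL24 in DLE dogs, and their part in its fall was not tested. The macrophage gene CD163 fell by 1.41 on the log2 scale (569 ± 182 normalised counts in DLE, SD, n = 7, and 1510 ± 723 in healthy dogs, n = 5, edgeR adjusted p = 0.00226), while CD86, of activated antigen-presenting cells, rose by 1.53. In the pyoderma dog CD163 was 1889, inside the healthy range of 578.8 to 2592, and in the MLE dog 1080, also inside it. In the CCLE dog CD163 was 376.7, below the healthy range. CCL24 was below the healthy range in all 3. The stromal chemokine CXCL12 fell by 1.99 and the mast cell genes KIT and MS4A2 by 0.70 and 0.68. The summed level of the 2 mast cell genes found of 7 listed was 406.4 to 676.3 in DLE dogs and 697.5 to 979.9 in healthy dogs. Each gene by itself overlapped between the groups. KIT reached 416.0 in DLE dogs and started at 327.1 in healthy dogs, and MS4A2 reached 279.2 and started at 278.4. How often sums of other probes are apart was not computed. No gene of the eosinophil list was among the probes with a symbol, so no value stands for the cells that CCL24 attracts.

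CCL26, the second eotaxin, was not called. The counts in DLE dogs were 19 at the lowest, 31 at the median and 43 at the highest, and 21, 17, 47, 13 and 14 in healthy dogs 1 to 5. It exceeded the background limit in 4 of 7 DLE dogs and only 1 of 5 healthy dogs, so a fall like that of CCL24 could hardly have been seen. Normalised counts averaged 32.7 ± 24.1 in DLE dogs (SD, n = 7) and 23.9 ± 6.86 in healthy dogs (n = 5), and the groups overlapped. The log2 change was 0.41 (95% interval -0.48 to 1.30, edgeR adjusted p = 0.382) and 0.00 without DLE dog 3. It was called under reference gene scaling (1.08) and turned negative under panel median scaling (-0.23), under quantile scaling (-0.17), with counts raised to the limit (-0.01) and, between the 9 lupus and the 6 other dogs, with the set as a block (-0.20, against 0.28 without the block).

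**Figure D2:**
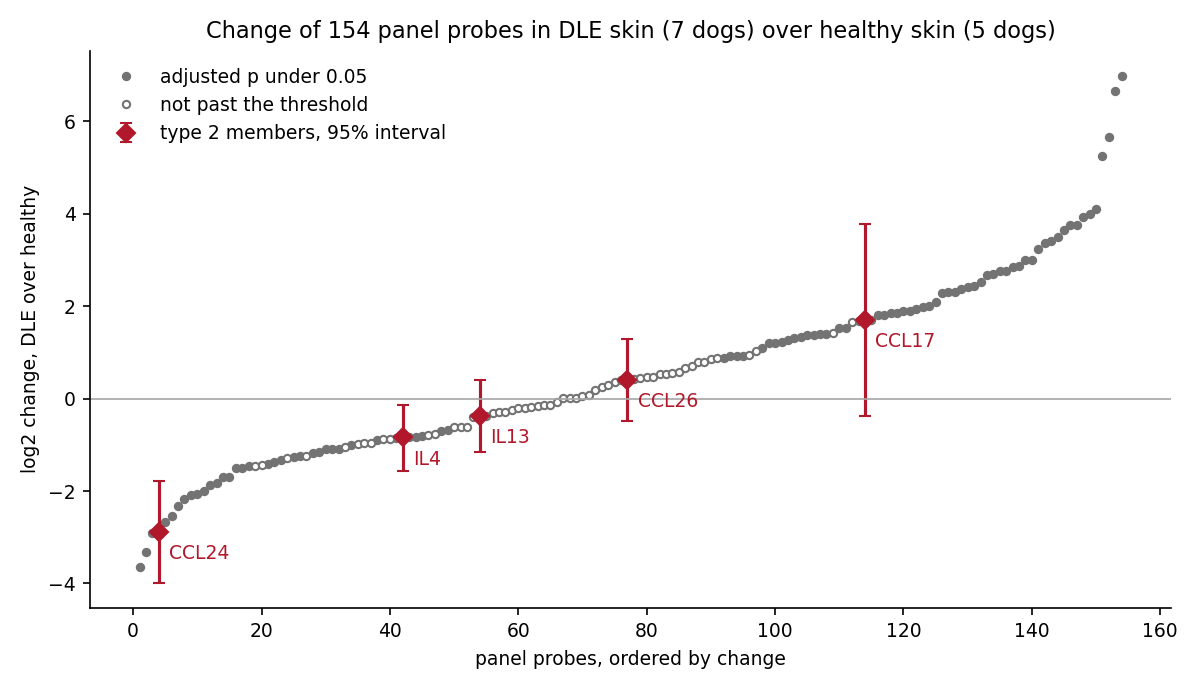
Log2 change of DLE (7 dogs) over healthy skin (5 dogs) for the 154 probes tested, ordered from lowest to highest, filled where the adjusted p is under 0.05. The 5 members (diamonds, with 95% intervals) spread from CCL24 at -2.88 to CCL17 at 1.71.

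**Figure D3:**
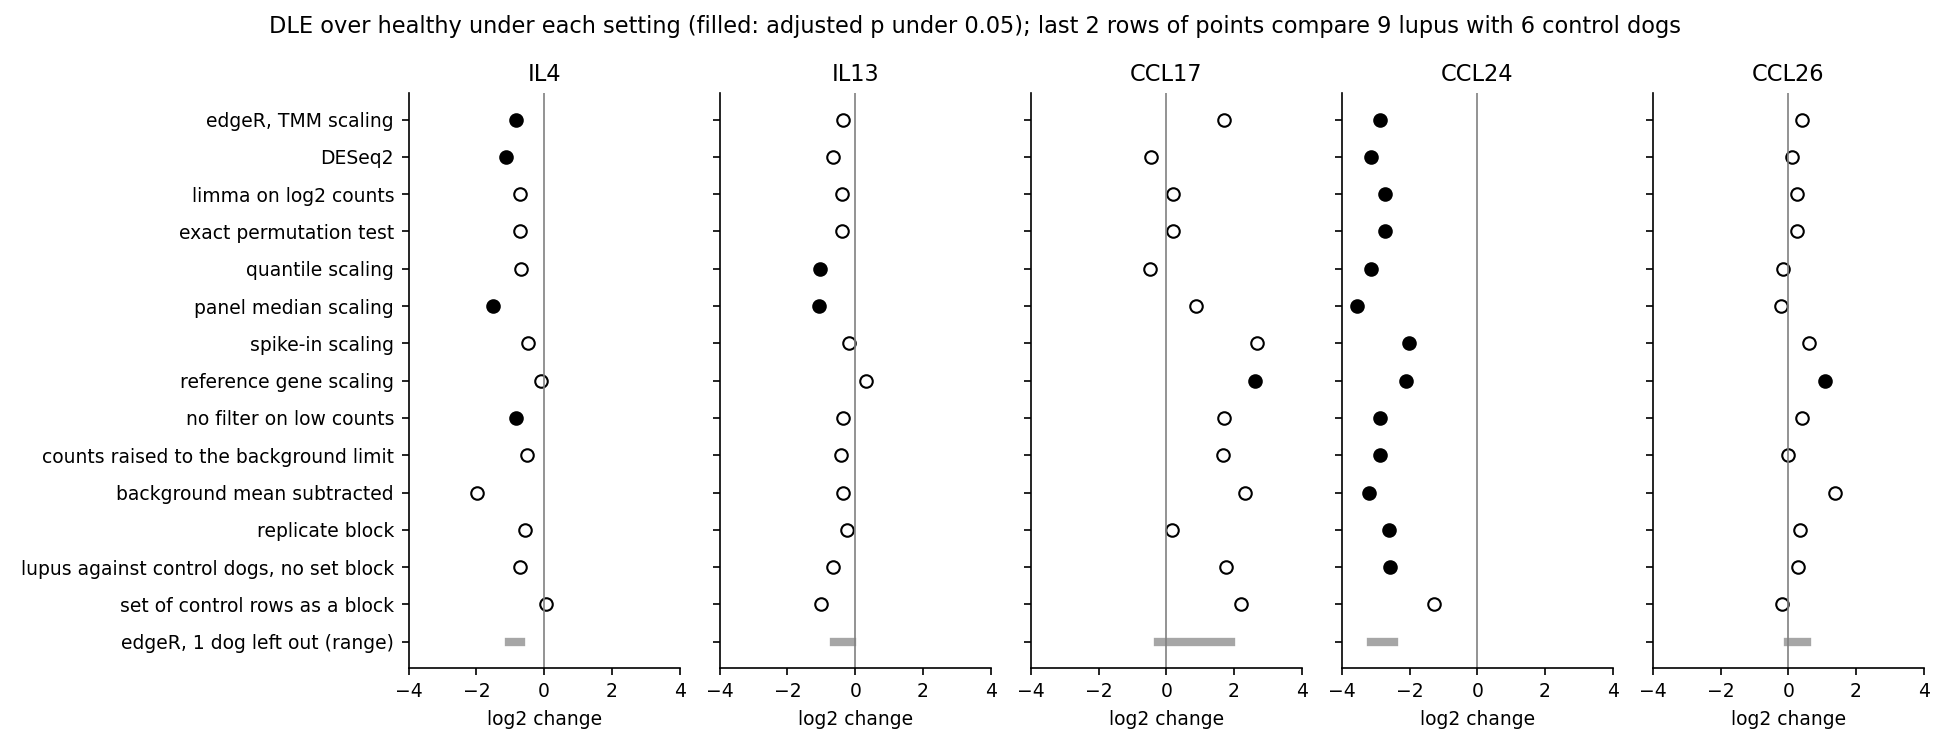
Log2 change of each member under every test, scaling and background treatment, with points filled where the adjusted p is under 0.05 and the grey bar giving the range when 1 dog is left out. The last 2 settings compare the 9 lupus with the 6 other dogs. CCL24 stayed negative throughout and was not called in that contrast with the set as a block (-1.28), whereas the other 4 members crossed 0 under at least 1 setting.

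The 2 eotaxins were also compared within each dog, as the ratio of their counts. Such a ratio does not give the relative abundance of 2 transcripts, since probes differ in efficiency, but it can be compared between dogs without scaling. The ratio of CCL24 to CCL26 was 1.00 at the lowest, 1.75 at the median and 3.06 at the highest in DLE dogs, against 24.0, 16.3, 3.70, 12.5 and 25.8 in healthy dogs 1 to 5. No DLE dog reached the lowest healthy dog. The mean log2 ratio was 0.75 ± 0.54 in DLE (SD, n = 7) and 3.77 ± 1.13 in healthy dogs (n = 5), a difference of -3.02 (exact permutation p = 0.00126, adjusted p = 0.00168 over the 4 ratios computed). CCL26 exceeded the limit in only 1 of 5 healthy dogs, so the healthy ratios are partly set by background. With counts raised to the background limit the ratio was 1.00 to 3.06 in DLE and 3.70 to 18.1 in healthy dogs, and the difference was -2.63. Of the 153 other probes, 13 (8.50%) had ratios to CCL26 that were apart in this direction. The ratio was 8.25 in the CCLE dog, inside the healthy range and above all DLE dogs. It thus did not set this lupus dog apart from the healthy dogs of set B. It was 2.32 in the MLE dog, inside the DLE range, and 3.67 in the pyoderma dog, between the DLE and healthy ranges. Each was under the healthy median of 16.3. For CCL24 to CCL17 the difference was -2.94 (exact permutation p = 0.00884, adjusted p = 0.00884), with overlap between the groups, and 3 of 153 probes (1.96%) had ratios to CCL17 that were apart in this direction.

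A type 1 and a type 2 cytokine were compared in the same way, as the ratio of IFNG, the type 1 cytokine that activates macrophages, to IL13. This ratio and the other 3 were chosen after the values were seen. It was 1.68 at the lowest, 1.95 at the median and 4.17 at the highest in DLE dogs, against 0.440, 0.545, 0.184, 0.487 and 0.6 in healthy dogs 1 to 5. All DLE dogs were above all healthy dogs. Since probes differ in efficiency, a ratio of 1 does not mark equal amounts of the 2 transcripts. The mean log2 ratio was 1.26 ± 0.51 in DLE (SD, n = 7) and -1.26 ± 0.69 in healthy dogs (n = 5), a difference of 2.52 (exact permutation p = 0.00126, adjusted p = 0.00168). Ratios to IL13 were apart and higher in DLE for 27 of 153 probes (17.6%), so that many genes of the lesion share this pattern. Taken singly, IFNG was called higher in DLE (log2 2.31, edgeR adjusted p = 0.000566). IL13 was not called (-0.37, edgeR adjusted p = 0.372).

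Within each set of control rows, the ratio of IFNG to IL13 could be read only from single dogs set beside a group. In set B it was 1.23 in the CCLE dog, above all 5 healthy dogs. In set A it was 2.66 in the MLE dog, inside the DLE range, and 0.532 in the pyoderma dog, below all 7 DLE dogs and inside the healthy range. The low ratio of the pyoderma dog went with its high IL13, since its IFNG of 56.9 normalised counts was inside the DLE range (40.94 to 228.6) and above the healthy range (15.23 to 23.87). IFNG exceeded the limit in 7 of 7 DLE and 1 of 5 healthy dogs, so the healthy ratios are partly set by background. With all counts raised to the limit the ratio was 1.68 to 4.17 in DLE and 0.184 to 1.00 in healthy dogs, and the difference was 1.92 on the log2 scale (exact permutation p = 0.00126). For IFNG to IL4 the difference was 2.89 (exact permutation p = 0.00126, adjusted p = 0.00168), and 26 of 153 probes (17.0%) were apart in the same direction, but IL4 was at background. With counts raised to the limit this ratio was 1.87 to 17.5 in DLE, 2.69 in the pyoderma dog and 0.893 to 1.00 in healthy dogs, so that the pyoderma dog stood with DLE by this ratio.

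**Figure D4:**
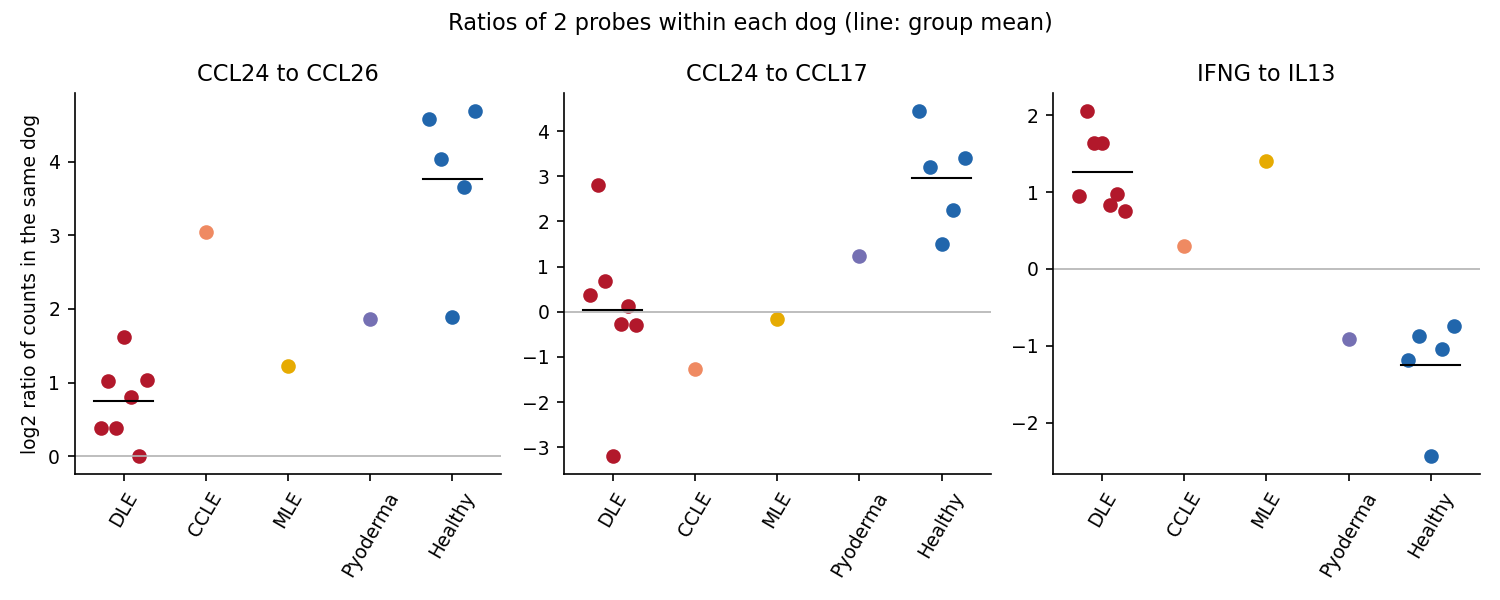
Log2 ratio of the counts of 2 probes in the same dog, for DLE (7 dogs), CCLE, MLE and pyoderma (1 each) and healthy skin (5 dogs), with lines at the group means. For IFNG to IL13 all DLE dogs are above all healthy dogs, and the pyoderma dog (-0.91), high in IL13 with an IFNG level inside the DLE range, lies among the healthy dogs.

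The single dogs were set beside both groups without a test. In the CCLE dog, CCL17 stood at 225.3 normalised counts, from 238 counts (exact Poisson interval 209 to 270), above all 5 healthy dogs (36.17 to 46.27) and below only DLE dog 4. CCL19, a dendritic cell and stromal chemokine, was 2942 in that dog, above the ranges of DLE (516.2 to 2043) and healthy dogs (155.3 to 312.1). In DLE dog 4, the other dog high in CCL17, CCL19 was 918.4, below the DLE median of 1003. IL13 in the CCLE dog (36.91) was inside both ranges, and IL4 and CCL26 were below its background limit.

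The pyoderma dog had the highest IL13 of the study after scaling. It stood at 107.0 normalised counts, from 94 counts (interval 76.0 to 115), above the DLE range of 20.97 to 73.47 and the healthy range of 27.22 to 82.85. Its IL4 count was 1. MS4A2, a chain of the IgE receptor of mast cells and basophils, was 541.6 in the same dog, above the DLE dogs (157.3 to 279.2) and the healthy dogs (278.4 to 445.1), while KIT, a growth factor receptor of mast cells, was 206.0, below both ranges. CD40LG, of activated helper T cells, was below its limit in the pyoderma dog. The part of mast cells in this IL13 level was not tested. In the MLE dog the 5 members were inside the DLE ranges, with IL13 at 32.60, CCL17 at 53.35 and CCL24 at 48.16, and MS4A2 was 43.72, below both ranges.

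By mean log2 level the groups ran from healthy through CCLE, pyoderma and MLE to DLE for CCL24, and the 3 single dogs were inside the DLE range. For IL13 pyoderma came first, followed by healthy, CCLE, DLE and MLE, of which the last 4 lay within the healthy spread. For CCL17 the CCLE dog led, and MLE, DLE, healthy and pyoderma followed within the DLE spread. For IL4 the order was healthy, DLE, MLE, CCLE and pyoderma, and for CCL26 DLE, healthy, MLE, pyoderma and CCLE, with most of these dogs at background.

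Among the 7 DLE dogs, CCL24 was the only member above background in at least 6. The probes with a symbol whose order over these 7 dogs was most like that of CCL24 were CCL3, an inflammatory chemokine (Spearman rho 0.82), MS4A2 (0.82) and the keratin KRT1 (0.75). These are descriptions over 7 dogs that share one scaling, picked as the highest of the probes with a symbol.

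Of 29 further type 2 pathway genes that were listed, 5 were among the probes with a symbol, all of them chemokines, and 1 rose, 0 fell and 4 were not called. CCL5, which attracts T cells and eosinophils, averaged 3338 normalised counts in DLE and 65.7 in healthy dogs (log2 5.67, edgeR adjusted p = 7.42e-06). CCL7 (log2 -1.28), CCL13 (-0.78) and CCL8 (1.03), monocyte chemoattractants that in humans also bind CCR3 or CCR2, and CCL1 (-0.25), the ligand of CCR8, did not pass the test. Their median was -0.25, against 0.42 for all probes. Of 8 listed Th1 genes the 4 found (IFNG, TNF, IL12B, CXCL10) rose, with a median of 2.06, and of 6 listed Th17 genes the 2 found (IL17A, CCL20) were not called. Beside these short lists, 58 of all 154 probes (37.7%) were called higher and 37 (24.0%) lower. IFNG averaged 95.8 ± 63.7 normalised counts in DLE (SD, n = 7) and 19.3 ± 4.20 in healthy dogs (n = 5). Receptors and signalling genes of the type 2 pathway, such as IL4R and STAT6, were not analysed here.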

How the data were processed

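The deposited table holds raw counts per probe for 15 samples, 160 panel probes and 14 ERCC control rows. Per the labels' protocols, RNA came from fixed, embedded biopsies and probes were labelled as NanoString describes. Which software counted the reporters, and whether background was corrected, is not stated in the sources used here. Symbols came from a RefSeq table of UU_Cfam_GSD_1.0 (72 probes of 160 matched). The files name no build, so no coordinates are given.

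Each label was taken as a separate dog. If some biopsies shared a dog, the p-values would not cover the spread between dogs in full. edgeR 4.0.16 (R 4.3.3) was used on the counts with TMM over the panel rows of all 15 dogs, filterByExpr and glmQLFTest, two-sided, on 154 probes. HPRT1 and RPL13A were left out as reference genes. SE is the log2 change over the root of F. Adjusted p is Benjamini-Hochberg over these 154 probes, with a threshold of 0.05. Log2 values outside edgeR use a pseudocount of 1, except the ratios within a dog, which use none. Exact permutation tests took all 792 splits. DESeq2 1.42.0 and limma 3.58.1 were alternatives, with other scalings, background treatments, blocks and left-out dogs. Simulated counts with known changes were used to test the fit. The lowest chi-square per degree of freedom between columns of a group (DLE or healthy) was 162, so none was a second count of the same RNA. Whether any biopsies came from the same dog is not shown by this check. Exact Poisson intervals (95%) cover counting error only.

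The members, gene lists, named genes (the members, up to 4 of each list by size of change, and the 3 probes most like a member) and tests were chosen with earlier results of these data known. The remaining marker lists matched few probes. Of those, MS4A1 (B cells), CD40LG and FOXP3 (T cells), KLRD1 (NK cells), CCL19 (dendritic cells) and KRT14 of 4 keratinocyte genes were higher in DLE, PPARG (fat) and COL1A1 with CXCL12 (fibroblasts) were lower, and DCT, TYR and MC1R (melanocytes) were not called. Neutrophil and endothelial genes matched 0 probes.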

Additional observations from a re-analysis of the deposited data

Results flagged for a closer look

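In 10 groups (5 members in DLE and in healthy dogs) the highest and lowest normalised counts were checked for a gap to the next dog. The gap had to be large for the group's range. Chance passes this check in about 5% of groups if values are normally distributed. The counts were not put on a log scale, where high values stand out less, so this rate need not hold here. The check picked 2 dogs. CCL17 in DLE dog 4 stood at 711.9 normalised counts, and the gap to the next DLE dog was 0.914 of the group's range (limit 0.568). This was large before scaling too, with 872 counts against 9 to 48 in the other DLE dogs. CCL26 in DLE dog 3 stood at 84.78 normalised counts, with a gap of 0.708 of the range. In raw counts that dog had 43, against 19 to 37 in the other DLE dogs. In DLE dog 3 each count became 1.97 normalised counts, against 0.816 to 0.999 in the other DLE dogs.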

How the results depend on the processing

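CCL24 was called lower in DLE than in healthy dogs under all 23 alternatives of that comparison (log2 -3.56 to -2.03, adjusted p from 7.16e-10 to 0.0214), with -3.15 to -2.46 without 1 dog. The contrast of the 9 lupus with the 6 other dogs, added without a block after the data were seen, gave -2.57 and, with a set block, -1.28, not called. IL4 was called in 6 of 23 (adjusted p 0.000859 to 0.832). It was not called in limma (-0.71), in the exact permutation test (-0.71), under reference gene (-0.08), spike-in (-0.48) and quantile scaling (-0.69), with counts raised to the background limit (-0.50) or background subtracted (-1.97), with a replicate block (-0.58) or in the lupus contrast (-0.72, and 0.06 with a set block). Without 1 dog IL4 ranged from -1.05 to -0.67 and was called only without DLE dog 3, DLE dog 4 or healthy dog 2. IL13 stood at 0.32 under reference gene scaling and fell past the threshold with quantile (-1.04) and panel median scaling (-1.08). In the lupus contrast it was -0.66, and -1.0 with a set block, called in neither. Without 1 dog it ranged from -0.63 to -0.08. CCL17 was 2.63 and called under reference gene scaling, -0.45 in DESeq2 and -0.47 under quantile scaling, and ranged from -0.23 (without DLE dog 4) to 1.92 without 1 dog. CCL26 was 1.08 and called under reference gene scaling, -0.23 under panel median and -0.17 under quantile scaling, -0.01 with counts raised to the limit and -0.20 in the lupus contrast with a set block. Without 1 dog it ranged from 0.00 (without DLE dog 3) to 0.55. The causes were not tested.

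Members called numbered 2 in the chosen fit, 1 (CCL24) in limma, the exact permutation test, spike-in scaling, both background treatments, the replicate block and the lupus contrast. It was 0 in that contrast with a set block, 3 under reference gene scaling (CCL17 and CCL26 higher, CCL24 lower) and 3 under panel median scaling (CCL24, IL4 and IL13, all lower). Without 1 dog they numbered 1 to 2. Panel calls numbered 95, and 90 to 97 without 1 dog. In the lupus contrast they numbered 86, and 40 with a set block. The share of higher calls was 61.1% by TMM (58 higher and 37 lower), 77.0% by spike-in (57 and 17), 83.0% by reference genes (83 and 17), 41.1% by panel median (44 and 63) and 46.4% by quantiles (45 and 52). Relative to the median change of all probes (0.42 by TMM, 1.09 by reference genes, -0.24 by panel median), IL13 was -0.93 to -0.77, IL4 -1.28 to -0.53, CCL26 -0.14 to 0.01 and CCL17 -0.55 to 1.93 under 6 scalings.

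Replicate numbers do not pair these dogs. Deviations of same-numbered dogs correlated between -0.14 and 0.182, and with the replicate block CCL24 was -2.61 (edgeR adjusted p = 0.0214) and panel calls numbered 85. For the ratios, also added later, the difference for CCL24 to CCL26 ranged from -3.49 to -2.79 without 1 dog, for CCL24 to CCL17 from -3.40 to -2.40, for IFNG to IL13 from 2.22 to 2.65 and for IFNG to IL4 from 2.66 to 3.31. IL4 was least often above background, in 2 of 15 dogs, and in 1 with the limit at mean plus 3 SD.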
